A study of Homo sapiens with 58 samples.

Results

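Promoters of protein-coding genes were more accessible than the other regulatory regions pooled, and most of them were not called as changed when SOX9 was removed from cranial neural crest cells (CNCCs). Of 23,413 promoter regulatory elements (REs), 1,301 became less and 1,314 more accessible after near-complete SOX9 depletion for 48 h, and few of the changes were large. Of the 183 decreases of at least 2-fold, 176 lay at promoters poor in CpG dinucleotides. Of the 12 largest decreases, 9 were at alternative start sites of their genes. Examples were RAB7B, GAS7, NMT1 and ABCB9, where the REs at the start of the transcript chosen to represent the gene were not called. The increases were small, were mostly not called at 3 h and were about as frequent at CpG-rich as at CpG-poor promoters, and they included the BMP-induced ID genes and the immediate early genes EGR1 and JUN. Accessibility was measured by ATAC-seq, in which a transposase cuts open chromatin and the reads falling in each RE are counted.

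The promoter REs were taken as every row of the ATAC-seq count table (genome build hg38) whose midpoint lay within 1,000 bp of the start of a protein-coding transcript in GENCODE v44. They numbered 23,413 of 151,457 REs (15.5%) and belonged to 15,405 genes, of which 7,159 had 2 or more. The remaining 128,044 REs served as the comparison. At 18,458 promoter REs (78.8%) the window held the start of a canonical transcript, the transcript that the annotation picks to represent a gene, and the others held only alternative starts. The rule used position alone and no measured value.

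The cells were CNCCs made from human embryonic stem cells (hESCs) of the line H9. In SOX9-tagged cells, both SOX9 alleles carried FKBP12-F36V, mNeonGreen and V5 at the carboxy terminus, and the small molecule dTAGV-1 leads to degradation of the tagged protein. Cells of 2 tagged clones, S9CC13 and S9CC47, received 0, 0.5, 1.6, 5, 16 or 500 nM dTAGV-1 for 48 h, with 7 replicates per dose from 6 differentiations, 1 of which gave a replicate of each clone, and the study's labels put SOX9 at 100, 77.9, 51.7, 25.8, 8.14 and 0.95% of the untreated level. Tagged cells were also compared at 3 h and 24 h of 500 nM with vehicle (n = 2 per group), and untagged wild-type (WT) cells received 500 nM for 3, 24 and 48 h beside their own controls (n = 2 per group). In all, 58 samples held 22905782 to 81040023 counts each, and the median promoter RE had 257 to 923 counts per sample. Among the markers listed for CNCCs, 28 of 29 genes had a promoter RE, with a median of 18.3 CPM per kb at 0 nM (CPM, counts scaled to a common library size). Of 8 blood and endothelial markers, 4 genes had a promoter RE, and the median over their 7 REs was 7.32. It was 16.8 over all promoter REs, near that of the CNCC markers, so this level alone does not identify the cells.

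Promoters are the stretches around transcription start sites where the transcription machinery assembles. Many lie in CpG islands and are open in most cell types, whereas promoters poor in CpG tend to be open only in particular cell types and to depend more on the factors present there. SOX9 is a DNA-binding protein of the SOX family that guides neural crest and cartilage development and acts largely through distal enhancers. SOX proteins recognise a short core, searched here as AACAAT or ACAATG on either strand, and SOX9 can bind as a dimer to cores that face each other.

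The sequences below are chosen examples from responding promoters, read from hg38 on the plus strand. The first pair comes from the 12 largest decreases and was picked for its SOX cores, which the capitals mark. A SOX core was present in 8 of these 12 REs, so the pair does not stand for all of them. The GAS7 stretch is chr17:10036748-10036947, directly upstream of an alternative start of GAS7, a gene on the minus strand named for its expression in growth-arrested cells, and its capitals hold overlapping matches to both core spellings. The RAB7B stretch is chr1:205994450-205994649, at an alternative start of this minus-strand gene for a small GTPase of the endosome-lysosome pathway.
GAS7: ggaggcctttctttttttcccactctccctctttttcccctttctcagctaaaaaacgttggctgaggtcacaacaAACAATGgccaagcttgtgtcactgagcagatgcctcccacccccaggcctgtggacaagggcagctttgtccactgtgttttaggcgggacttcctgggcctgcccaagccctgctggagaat
RAB7B: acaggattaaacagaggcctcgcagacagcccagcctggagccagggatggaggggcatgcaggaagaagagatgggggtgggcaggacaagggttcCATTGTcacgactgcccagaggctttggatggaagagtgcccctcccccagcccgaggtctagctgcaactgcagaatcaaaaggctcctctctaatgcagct

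For contrast, a promoter that became more accessible was chosen after the values were seen. It is not among the 12 largest increases, none of which was CpG rich, and the stretch was picked for its many CG dinucleotides. The PRRX2 stretch, chr9:129665251-129665400, lies upstream of the plus-strand gene for a homeobox factor of the facial mesenchyme, and its capitals mark 15 CG dinucleotides.
PRRX2: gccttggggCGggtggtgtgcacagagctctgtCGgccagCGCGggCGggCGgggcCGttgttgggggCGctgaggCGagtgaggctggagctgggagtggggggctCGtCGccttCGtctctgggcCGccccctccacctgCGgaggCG

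To ask how often promoters respond to the loss of SOX9, 500 nM was compared with 0 nM at 48 h over all REs with edgeR's quasi-likelihood test, and an RE was called when its Benjamini-Hochberg adjusted p-value was under 0.05. Of the promoter REs 5.56% were called lower, beside 13.9% of all REs and 15.5% of the other REs. A further 5.61% were called higher, beside 10.2% of all REs and 11.0% of the others. The called promoter REs also moved less, with a median log2 fold change of -0.44 among the lower and 0.24 among the higher, against -0.68 and 0.57 for the other REs. At least 2-fold changes were called lower at 183 and higher at 14 promoter REs (0.782% and 0.0598%), where the background over all REs was 3.88% and 0.608%. Promoter REs covered 18.7% of all base pairs in REs and made up 6.16% of the decreases and 8.51% of the increases. The median promoter RE had 11.5 CPM at 0 nM against 2.02 for the others, so counting error was smaller at promoters.

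The number of called promoter REs depended on how replicates and depth were handled. With the replicate number as a block in place of the differentiation batch, 1,812 promoter REs were lower and 2,311 higher, and without replicate S9CC47_R8 1,135 were lower and 586 higher. Scaling by promoter REs alone, an alternative added after the data were seen, gave 1,543 lower and 1,112 higher calls, and scaling by total counts 1,113 and 2,632. Of the main calls, 1,300 of 1,301 decreases and 1,091 of 1,314 increases were kept under promoter scaling. The effect did not differ between the clones at any promoter RE past the threshold (0 called by edgeR and by DESeq2, over a background of 0%, while 1,950 had an unadjusted p-value below 0.05).

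**Figure D1:**
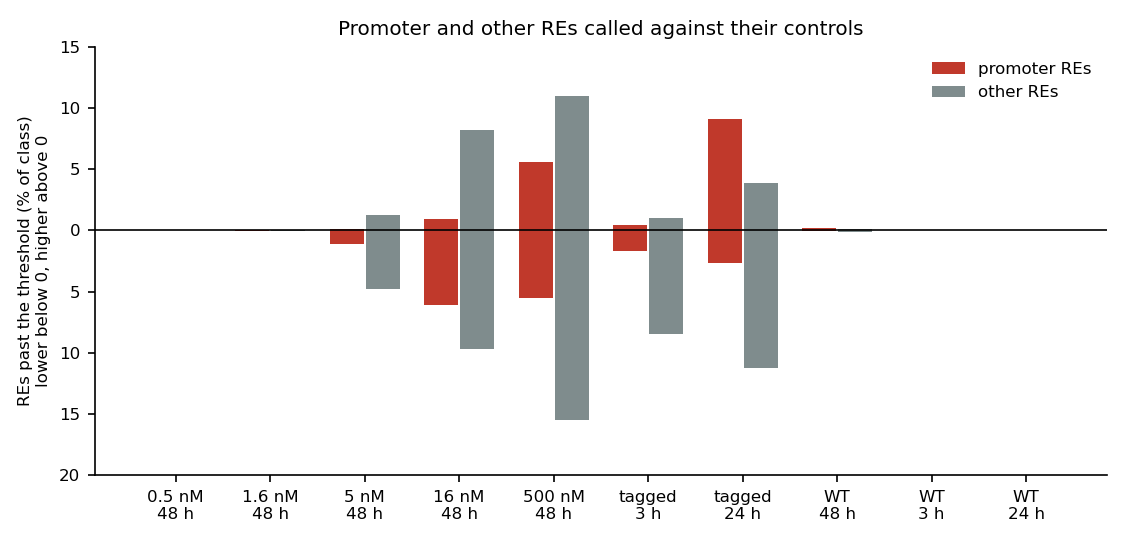
Share of REs called lower or higher (percent, edgeR adjusted p-value under 0.05) at each comparison, for promoter REs and for all other REs. At 500 nM 5.56% of promoter REs were lower and 5.61% higher, against 15.5% and 11.0% of the other REs.

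The responses in both directions sat on different kinds of promoters. An RE was called CpG rich when its central window, as wide as an RE from a single peak summit, had a GC content of at least 50% and a ratio of observed to expected CpG of at least 0.6, which held for 66.3% of promoter REs and 3.95% of the others. Among CpG-poor promoter REs 12.3% were lower and 5.02% higher at 500 nM, and among CpG-rich promoter REs 2.12% were lower and 5.91% higher. Of the 183 decreases of at least 2-fold, 176 were at CpG-poor and 7 at CpG-rich promoter REs, and all 14 such increases were at CpG-poor ones. CpG-poor promoter REs were still called lower less often than CpG-poor REs elsewhere, of which 15.9% were lower. In the most accessible of 5 equal bins of all REs by CPM, 17.3% of CpG-poor promoter REs were lower, beside 36.4% of the other CpG-poor REs. Higher promoter REs had a median of 34.9 CPM per kb at 0 nM, lower ones 14.4 and all 16.8. These shares are descriptions and their differences were not tested.

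Position relative to the annotated starts separated the responses further. REs at alternative starts alone were lower in 12.6% of cases and higher in 6.01%, against 3.67% and 5.50% at canonical starts. Within CpG-poor promoter REs the lower share was 16.2% at alternative and 9.40% at canonical starts, and within CpG-rich ones 4.72% and 1.83%. The lower share was 4.29% where the midpoint lay within 250 bp of the start, 6.42% from there to 500 bp and 8.42% beyond, while the higher share ran the other way, from 6.50% to 4.78% and 3.79%. Of the 2,316 promoter REs shared by 2 or more genes, 1.47% were lower and 6.52% higher.

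**Figure D2:**
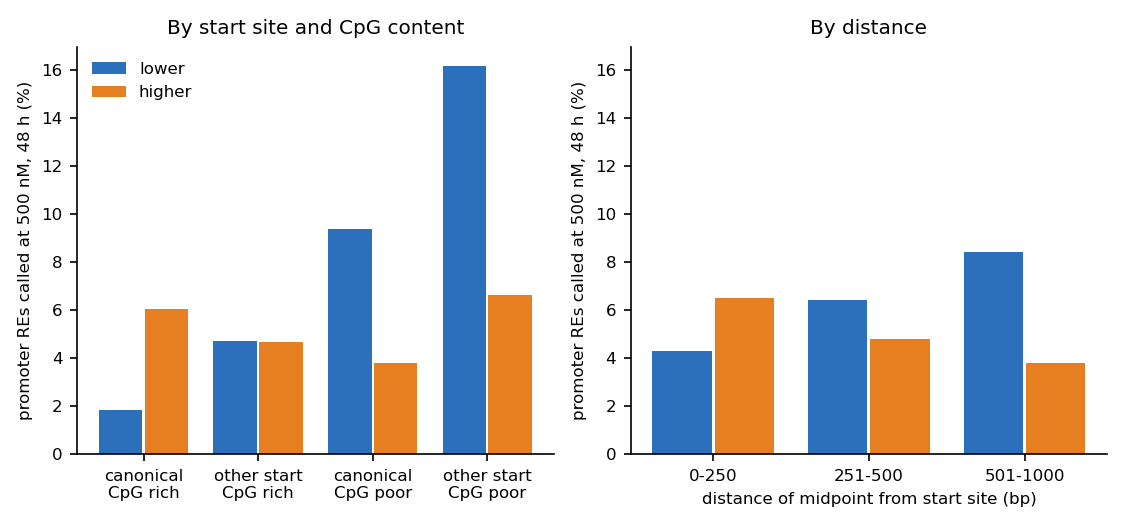
Share of promoter REs called lower or higher at 500 nM (percent) by CpG class, start site and distance of the RE midpoint from the start. The lower share ran from 1.83% at CpG-rich canonical starts to 16.2% at CpG-poor alternative starts.

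Where an alternative start lost accessibility, the canonical promoter RE of the gene was usually not called, as was the case for canonical REs at large. Of the 624 lower REs at alternative starts, 515 belonged to genes that also had a promoter RE at a canonical start. That canonical RE was not called in 451 cases (87.6%), lower in 52 and higher in 12, and the median log2 fold change was -0.54 at the alternative and -0.02 at the canonical REs. Of 252 higher alternative-start REs with a canonical partner, 25 partners were higher, 8 lower and 219 not called. Over all canonical REs 9.17% were called, 3.67% lower and 5.50% higher, so most partners would be uncalled at that share too. Partners moved in the direction of the alternative-start RE more often than these shares, and the difference was not tested. At the gene level, 1,139 genes had a lower promoter RE, 1,389 a higher one and 46 both.

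**Figure D3:**
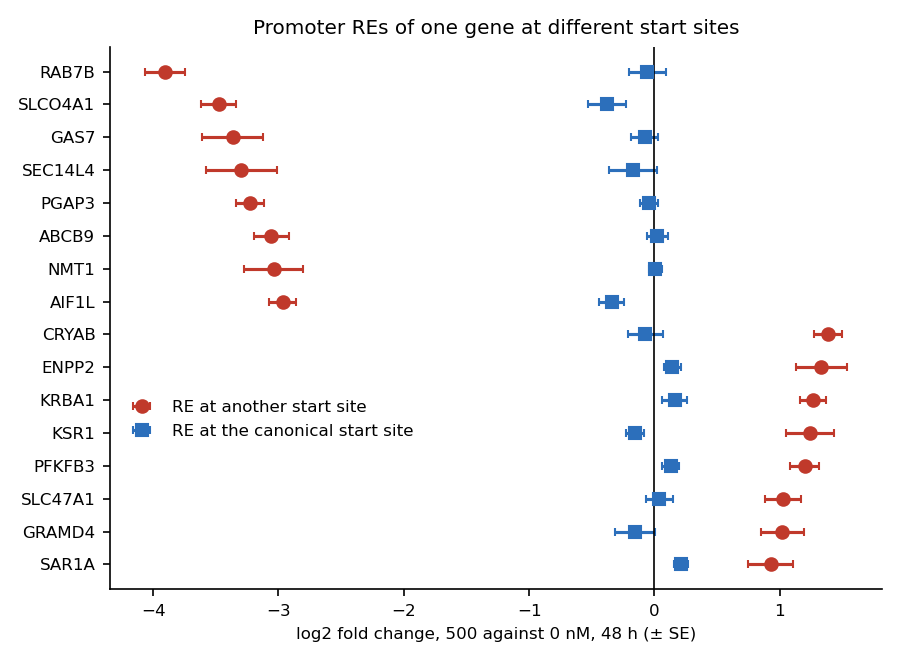
Log2 fold change at 500 nM (x axis, ± SE) of promoter REs at alternative starts (circles) and at the canonical start of the same gene (squares), for the genes among the 12 largest decreases and the 12 largest increases that had both. The circles of RAB7B, GAS7 and NMT1 lie at -3.91, -3.37 and -3.04, and their squares at -0.06, -0.08 and 0.01.

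The 12 largest decreases, each present in 7 of 7 replicates, were at OC90, RAB7B, MRGPRX3, SLCO4A1, GAS7, MYL10, SEC14L4, PGAP3, ABCB9, NMT1, AIF1L and RGR. None was CpG rich, 3 of 12 were at canonical starts and 8 held a SOX core. The RAB7B RE had 6.52 CPM in the lowest, 11.8 in the median and 13.7 in the highest replicate at 0 nM, and 0.50, 0.66 and 1.16 CPM at 500 nM. The groups did not overlap, and the log2 fold change was -3.91 ± 0.16 (SE, edgeR adjusted p = 1.78e-15). At the canonical start of RAB7B, 8,858 bp away, the change was -0.06 ± 0.15 (adjusted p = 0.838). That canonical RE had a mean of 1.77 CPM at 0 nM, so the alternative-start RE was the more accessible before depletion. The GAS7 RE fell from 1.64, 2.76 and 4.24 CPM (lowest, median, highest) to 0.17, 0.22 and 0.54 CPM, again without overlap, a log2 fold change of -3.37 ± 0.24 (adjusted p = 7.2e-11). The canonical GAS7 promoter changed by -0.08 ± 0.11 (adjusted p = 0.658).

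NMT1 encodes an enzyme that attaches the fatty acid myristate to proteins, and it shows the widest gap in baseline between its starts. Its alternative-start RE had 0.98, 3.26 and 7.17 CPM at 0 nM and 0.27, 0.44 and 0.58 CPM at 500 nM (log2 fold change -3.04 ± 0.24, adjusted p = 3.88e-10). Its canonical promoter, 103,517 bp away, held a mean of 87.9 CPM at 0 nM and 88.6 CPM at 500 nM (0.01 ± 0.05, adjusted p = 0.947). ABCB9, a peptide transporter of the lysosome, went from 12.6, 16.02 and 22.5 CPM to 1.61, 2.08 and 2.77 CPM at its alternative start (-3.06 ± 0.14, adjusted p = 1.92e-14), and its canonical promoter changed by 0.02 ± 0.08 (adjusted p = 0.879). Among the 8 of these 12 genes with a canonical-start partner, only AIF1L, an actin-bundling protein gene, had a canonical promoter called lower (-0.34 ± 0.10, adjusted p = 0.0115). Its alternative start changed by -2.97 ± 0.11 (adjusted p = 3.33e-16). The canonical promoter of SLCO4A1, with a mean of 1.98 CPM at 0 nM, changed by -0.38 ± 0.15 and was not called (adjusted p = 0.0716).

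The canonical promoters of OC90, MYL10 and RGR were themselves among the strongest decreases. OC90, which encodes a protein of the otoconia in the inner ear, had 3.63, 5.65 and 22.0 CPM at 0 nM and 0.19, 0.45 and 0.76 CPM at 500 nM (-4.36 ± 0.29, adjusted p = 2.16e-11). MYL10, a myosin light chain gene, fell from 3.49, 8.76 and 11.3 CPM to 0.36, 0.73 and 1.34 CPM (-3.30 ± 0.17, adjusted p = 9.62e-14). RGR, an opsin gene known from the pigment epithelium of the eye, fell from 4.70, 7.40 and 17.0 CPM to 0.73, 1.13 and 1.99 CPM (-2.88 ± 0.18, adjusted p = 7.85e-12). For each of these genes the lowest 0 nM replicate lay above the highest 500 nM replicate.

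The 12 largest increases were smaller, with log2 fold changes from 0.93 to 1.43. They lay at ASIP, CRYAB, ENPP2, KRBA1, KSR1, PFKFB3, MYH15, ADPRHL1, TRPC5OS, SLC47A1, GRAMD4 and SAR1A, of which 2 were at canonical starts and none CpG rich. PFKFB3, a regulator of glycolysis, had 3.30, 6.97 and 10.1 CPM at 0 nM and 11.2, 15.5 and 21.5 CPM at 500 nM at an alternative start (1.20 ± 0.12, adjusted p = 1.4e-08), and these groups did not overlap. CRYAB, a small heat shock protein gene, had 1.95, 4.11 and 7.34 CPM at 0 nM and 5.47, 10.1 and 17.6 CPM at 500 nM (1.39 ± 0.11, adjusted p = 4.33e-10). Its groups overlapped, although 7 of 7 replicates rose. ASIP, an antagonist of melanocortin signalling in pigment cells, rose from 0.96, 1.23 and 2.32 CPM to 2.13, 3.24 and 6.86 CPM with a small overlap (1.43 ± 0.13, adjusted p = 9.21e-09). The canonical promoters of PFKFB3 (0.13 ± 0.07, adjusted p = 0.192) and CRYAB (-0.07 ± 0.14, adjusted p = 0.768) were not called.

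**Figure D4:**
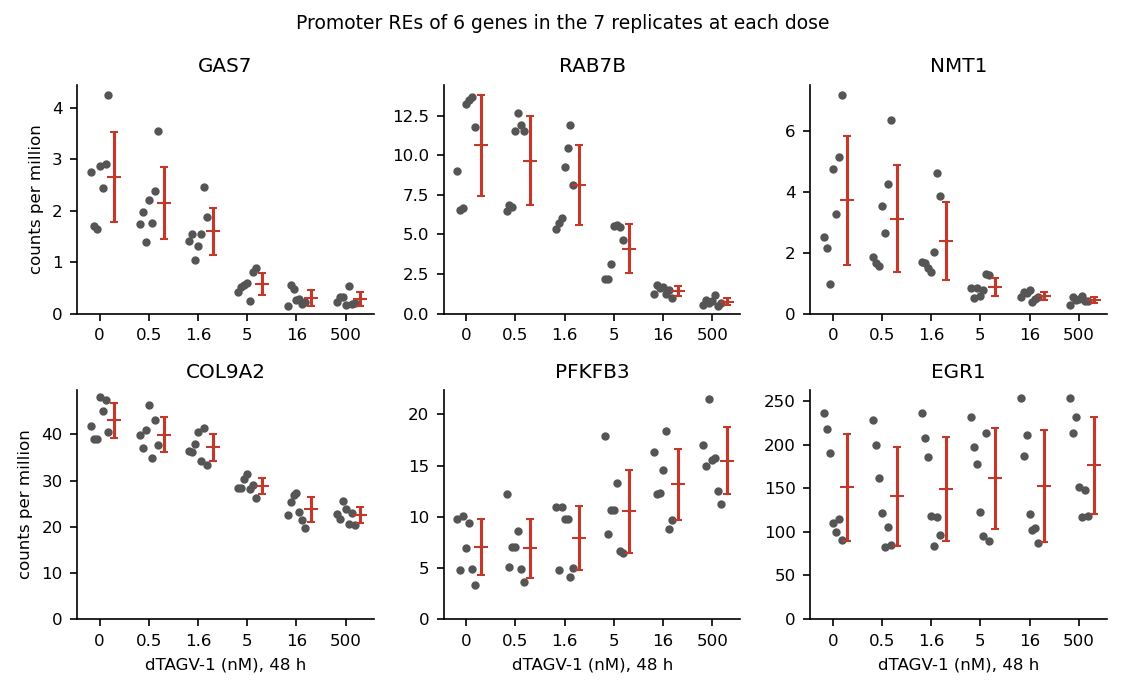
CPM at 6 promoter REs (y axis) against dTAGV-1 concentration (x axis), with 7 replicates as points and the mean ± SD. RAB7B, GAS7 and NMT1 fell at alternative starts, COL9A2 fell by a smaller factor, and PFKFB3 and EGR1 rose.

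The promoter of SOX9 itself stayed open. The tag depletes the protein, so accessibility at this promoter does not check the labels. It had 37.7, 43.7 and 52.4 CPM at 0 nM and 43.1, 51.1 and 54.7 CPM at 500 nM, so the groups overlapped. The change was 0.16 ± 0.05 (adjusted p = 0.0212), and 7 of 7 replicates were higher. The difference from the WT effect was 0.13 ± 0.09 (adjusted p = 0.493), and without block and batch the adjusted p-value was 0.277.

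Gene lists were then read out at 500 nM, each against the background of 13.9% lower and 10.2% higher over all REs. Over all promoter REs these shares were 5.56% and 5.61%. Cartilage genes, among which SOX9 has many direct targets, had 11 of 36 promoter REs lower and 1 higher (median -0.11). An alternative-start RE of WWP2, an E3 ubiquitin ligase gene whose intron hosts a cartilage microRNA, fell from 1.20, 3.56 and 5.48 CPM to 0.54, 0.93 and 1.56 CPM (-1.81 ± 0.17, adjusted p = 8.74e-09), with an overlap between the groups. COL9A2, a chain of the cartilage collagen IX, fell from 39.1, 41.9 and 48.2 CPM to 20.4, 22.9 and 25.5 CPM without overlap (-0.94 ± 0.07, adjusted p = 5.5e-11). For COL9A3, another chain of this collagen, both the canonical RE (-1.49 ± 0.20, adjusted p = 2.32e-06) and an alternative one (-1.69 ± 0.17, adjusted p = 3.83e-08) were lower. At 3 h, 7 of the 36 cartilage REs were called lower.

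Glial genes had 6 of 13 promoter REs lower and 2 higher (median -0.12). GFAP, an intermediate filament of glia, fell from 2.61, 3.43 and 7.12 CPM to 0.98, 1.30 and 1.82 CPM without overlap (-1.55 ± 0.14, adjusted p = 8.08e-09). S100B, a calcium-binding protein of glia, changed by -1.49 ± 0.23 (adjusted p = 2.11e-05). In a bulk assay, fewer cells with an open promoter and a less open promoter in each cell cannot be told apart.

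Promoters of cranial neural crest factors had 0 of 46 REs lower and 5 higher (median 0.01, and -0.01 under promoter scaling). The higher share lay near the background of all REs and above the 5.61% of all promoter REs, a difference that was not tested. PRRX2, whose CpG-rich sequence is shown above, had 3.68, 11.7 and 14.03 CPM at 0 nM and 7.24, 14.8 and 21.4 CPM at 500 nM (0.62 ± 0.12, adjusted p = 0.000332), with overlapping groups. The homeobox gene MSX1 (0.37 ± 0.09, adjusted p = 0.00261) and the paired-box gene PAX3 (0.26 ± 0.07, adjusted p = 0.0112) rose in 6 of 7 replicates each. The difference from the WT effect passed the threshold for PRRX2 (0.82 ± 0.18, adjusted p = 0.00188), and not for MSX1 (adjusted p = 0.252) or PAX3 (adjusted p = 0.14).

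Signalling targets were read in the same way. Genes induced by BMP signalling had 0 of 9 promoter REs lower and 6 higher (median 0.18), and immediate early genes, which include the AP-1 subunits, had 1 of 15 lower and 5 higher (median 0.18). The promoter of ID1, an inhibitor of helix-loop-helix factors, had 26.8, 34.3 and 48.6 CPM at 0 nM and 30.5, 39.8 and 51.5 CPM at 500 nM. The groups overlapped, and the change was 0.19 ± 0.06 (adjusted p = 0.0164) in 7 of 7 replicates. At EGR1, a zinc finger factor, the values were 90.2, 114.6 and 236.3 CPM and 117.6, 151.8 and 254.2 CPM (0.25 ± 0.05, adjusted p = 0.000266). JUN rose by 0.23 ± 0.05 (adjusted p = 0.00217). FGF feedback genes had 3 of 16 lower and 0 higher, led by ETV4 (-0.35 ± 0.10, adjusted p = 0.0114), and WNT targets 3 of 19 lower and 0 higher, all of them at RNF43, a negative regulator of WNT receptors (-0.97 ± 0.16, adjusted p = 4.83e-05 at the largest). The lower shares of the FGF and WNT lists were near the background of all REs, with medians of -0.08 and -0.02. They lay above the 5.56% of all promoter REs, and these differences were not tested.

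In the remaining lists the counts were 0 lower and 0 higher of 8 for melanocytes, 1 and 3 of 21 for osteoblasts, and 4 and 5 of 19 for contractile and YAP target genes. They were 2 and 1 of 18 for neurons, 0 and 1 of 17 for neuroepithelium, 2 and 0 of 9 for pluripotency, 1 and 0 of 9 for epithelium, and 0 and 0 of 7 for blood and endothelium. Cell cycle genes had 1 and 2 of 31, p53 targets 0 and 1 of 20 and ribosomal protein genes 0 and 2 of 101. Both pluripotency REs that were lower belonged to LIN28A, an RNA-binding protein of stem cells, where the larger change was from 28.3, 34.0 and 35.7 CPM to 17.2, 18.5 and 23.3 CPM (-0.78 ± 0.07, adjusted p = 6.34e-09).

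To follow the response along the dose series, each dose was compared with the same 0 nM samples, so the comparisons are not independent of each other. At 16 nM (8.14% SOX9) 1,418 promoter REs were lower and 221 higher, 6.06% and 0.944% against 9.12% and 7.12% of all REs. Of the 1,639 called at 16 nM, 934 (57.0%) were also called at 500 nM, all in the same direction. At 5 nM (25.8% SOX9) the counts were 267 and 19, 1.14% and 0.0812% against 4.24% and 1.08% of all REs, and 97.6% of them were also called at 500 nM. At 1.6 nM (51.7% SOX9) 3 were lower and 0 higher, against 0.0383% of all REs lower, and at 0.5 nM (77.9% SOX9) edgeR and DESeq2 called 0 promoter REs, as in all REs (0%), while 1,749 had an unadjusted p-value below 0.05 in edgeR. With the replicate as a block, 16 nM had 4,143 lower and 482 higher promoter REs, 5 nM had 465 called in all and 1.6 nM had 66.

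The 16 nM and 5 nM counts leaned on single replicates and on scaling. Leaving out S9CC13_R13, S9CC47_R5 or S9CC47_R8 gave 1,019, 913 and 885 called promoter REs at 16 nM, and leaving out S9CC13_R6 or S9CC47_R6 gave 4,361 and 2,767. At 5 nM, 1,592 were called without S9CC47_R6. In that replicate promoter REs held 47.6% of all counts at 5 nM against 40.1% at 0 nM. At 16 nM the median promoter RE had a log2 fold change of -0.08 and the median other RE 0.04. Under promoter scaling the 16 nM calls were 753 lower and 604 higher, and with total counts 969 and 387.

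The 3 promoter REs called at 1.6 nM were at AIF1L, MAD1L1 and LEMD1. AIF1L had 20.8, 28.2 and 35.7 CPM at 0 nM and 16.8, 19.3 and 23.1 CPM at 1.6 nM, and changed by -0.46 ± 0.06 on the log2 scale (adjusted p = 0.0318). The values at MAD1L1, a gene of the mitotic checkpoint, were 4.13, 8.50 and 11.5 CPM and 3.30, 5.79 and 7.81 CPM (-0.56 ± 0.10, adjusted p = 0.042). LEMD1 changed by -0.43 ± 0.08 (adjusted p = 0.0479). The groups overlapped at each of these genes. With DESeq2, 18 promoter REs were called at 1.6 nM, and 1 under total-count or promoter scaling.

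How far each dose had moved towards the 500 nM change was expressed as a percentage in every replicate, from medians of log2(CPM + 1) changes over the called REs. For lower promoter REs this share was 9.92% ± 13.6 at 0.5 nM and 18.1% ± 13.4 at 1.6 nM (SD, n = 7). It was 48.3% ± 10.3 at 5 nM and reached 73.7% ± 15.2 at 16 nM. The other lower REs had 2.87%, 16.2%, 45.7% and 67.8% at the same doses, and the difference from promoter REs was within 1 SD over replicates at each dose, although the promoter share was the larger in 6 of 7 replicates at 0.5 and 5 nM. For higher promoter REs the share was -34.6% ± 69.4 at 0.5 nM, -11.95% ± 66.5 at 1.6 nM and 21.5% ± 58.6 at 5 nM. It was 15.6% ± 39.2 at 16 nM (30.3% with total counts), against 76.2% ± 21.0 for the other higher REs, and the promoter share was the smaller in 6 of 7 replicates. These shares of higher promoter REs varied widely between replicates and with the scaling, so no order of the doses can be read from them. These REs were chosen by their 500 nM change, so the shares are descriptions.

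Hill curves fitted to each called RE gave the SOX9 level at the middle of its change, the ED50. The median ED50 was 23.1% SOX9 for lower and 4.12% for higher promoter REs, against 21.4% and 18.3% for the other REs. The curves used the main scaling alone, and whether these medians depend on the scaling was not tested. At 16 nM the higher promoter calls went from 221 to 604 under promoter scaling, so the low ED50 of higher promoter REs is uncertain. Leaving out single replicates moved the median of higher promoter REs between 2.23% (without S9CC13_R10) and 6.28% (without S9CC47_R6), a range between the SOX9 levels of 16 and 500 nM in which no dose was measured. Lower promoter REs that were also called lower at 3 h had a median of 31.4%, and those that were not 19.1%. Among single REs named above, the ED50 was 47.8% for GAS7, 46.0% for NMT1 and 17.0% for PFKFB3.

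**Figure D5:**
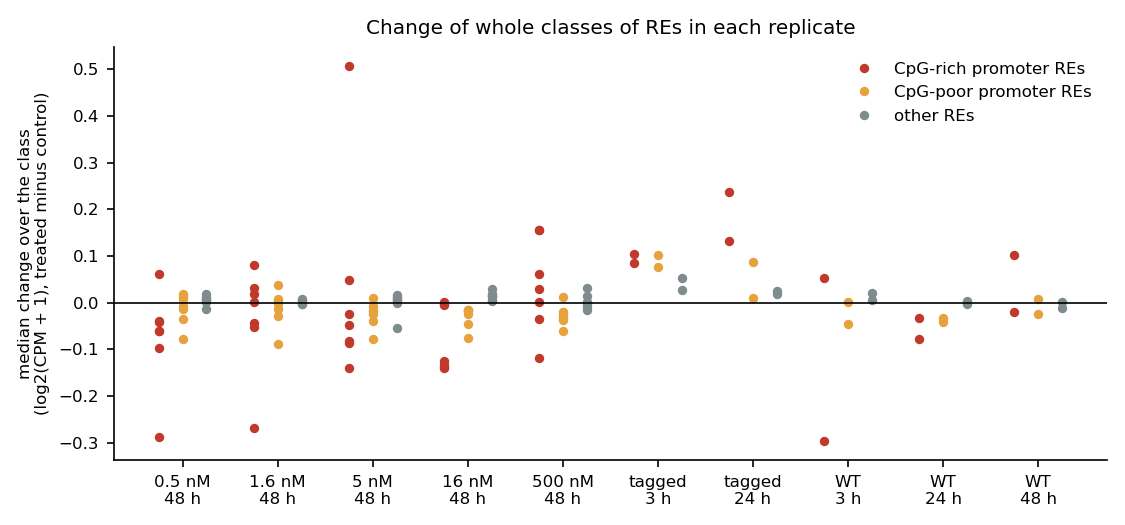
Median log2 change from the control sample of the same replicate over CpG-rich promoter, CpG-poor promoter and other REs (y axis), with a point for each replicate of each group. CpG-rich promoters moved by 0.04 ± 0.10 at 500 nM (SD, n = 7), and replicate S9CC47_R6 stood at 0.51 at 5 nM.

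Promoters as a whole shifted by small amounts that moved with the replicate. Promoter REs held 42.5% ± 4.28 of all counts at 0 nM (SD, n = 7, from 37.7% to 48.7%) and 44.5% ± 3.42 at 500 nM, a rise of 1.97 percentage points ± 1.56 that was present in 6 of 7 replicates. At 16 nM the change was -0.37 ± 0.92 points. In the tagged time course it was 1.78 points at 3 h and 3.58 points at 24 h (2 of 2 replicates each), and in WT cells -1.71 points ± 2.98 at 3 h, -0.53 ± 0.71 at 24 h and, after 48 h, 0.68 ± 1.17 (n = 2, SD). Both WT replicates fell at 24 h, and they moved in opposite directions at 3 h and 48 h. The median CpG-rich promoter RE changed by 0.18 on the log2 scale at 24 h in tagged cells and by -0.12 at 3 h in WT cells (0.05 in R4 and -0.30 in R5), although 0 promoter REs were called in the latter.

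The time course asked which promoters respond soon after SOX9 loss, in samples separate from the dose series. At 3 h 403 promoter REs were lower and 102 higher (1.72% and 0.436%), beside 7.43% and 0.912% of all REs. At 24 h 624 were lower and 2,139 higher (2.67% and 9.14%), beside 9.93% and 4.70% of all REs, and the higher share exceeded the 3.89% of the other REs. That excess depended on scaling. Promoter scaling, which moved the median log2 fold change of all REs at 24 h from 0.01 to -0.10, gave 991 lower and 420 higher promoter REs, and total counts gave 541 and 3,436. DESeq2 called 402 lower and 674 higher. Each replicate was also read alone against its own vehicle sample, on the log2(CPM + 1) scale. The median promoter RE changed at 24 h by 0.10 in R4 and 0.20 in R5, and the median other RE by 0.03 and 0.02. Fits without 1 tagged replicate also took in the WT time-course samples, so their counts cannot show whether the excess needed both replicates.

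WT cells, which lack the tag, served as a control for effects of dTAGV-1 itself. At 48 h 8 promoter REs were lower and 40 higher in WT cells (0.0342% and 0.171%), beside 0.145% and 0.158% of all REs, and DESeq2 called 0 with 124 below an unadjusted p-value of 0.05. At 3 h and 24 h, 0 promoter REs were called by edgeR and DESeq2, over a background of 0%, with 434 and 273 at an unadjusted p-value under 0.05 in edgeR. The effect in tagged cells differed from that in WT cells, by the interaction of treatment and genotype, at 234 promoter REs with a lower and 14 with a higher effect at 3 h, where the background over all REs was 5.13% and 0.0720%. At 24 h these were 325 and 43 promoter REs, over a background of 6.28% and 0.450%, and at 48 h 513 and 180, over a background of 7.29% and 3.56%. Most of the 2,139 promoter REs called higher at 24 h in tagged cells therefore did not pass the test of a difference from WT. With n = 2 per group this does not show that their increase occurred without the tag. The 43 became 102 with total counts and 3 under promoter scaling.

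Among the 1,301 promoter REs lower at 48 h, 356 (27.4%) were lower at 3 h, 537 (41.3%) at 24 h and 741 (57.0%) were not called at either time. For the 19,813 other lower REs the shares were 44.3%, 61.4% and 37.4%. Of the 1,314 higher promoter REs, 12 (0.913%) were higher at 3 h and 577 (43.9%) at 24 h, against 1.68% and 24.5% of the other higher REs. The median log2 fold change of lower promoter REs was -0.14 at 3 h, -0.32 at 24 h and -0.44 at 48 h in tagged cells, and -0.03, -0.07 and 0.01 in WT cells. For higher promoter REs it was 0.05, 0.28 and 0.24 in tagged cells and -0.12, -0.03 and 0.07 in WT cells. The differences between these shares were not tested.

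All 12 of the largest decreases at 48 h were already called at 3 h, when 7.43% of all REs were called lower. At RAB7B the vehicle samples of replicates R4 and R5 had 16.4 and 14.8 CPM, those at 3 h 1.67 and 1.28 CPM, and those at 24 h 0.98 and 0.63 CPM. In WT cells RAB7B had 22.1 and 19.2 CPM with vehicle and 23.6 and 19.5 CPM at 3 h. The difference between tagged and WT effects at 3 h was -3.56 ± 0.21 (adjusted p = 2.36e-10). At GAS7 the tagged samples went from 6.26 and 3.65 CPM to 0.60 and 0.34 CPM at 3 h (-3.47 ± 0.27, adjusted p = 4.31e-08), and the WT samples from 8.55 and 6.95 CPM to 8.17 and 6.35 CPM. OC90 went from 21.4 and 5.28 CPM to 1.53 and 0.45 CPM (-3.75 ± 0.27, adjusted p = 1.08e-08), with replicates that differed in level and not in direction. In WT cells at 48 h, OC90, SLCO4A1 and RGR were called higher by 0.30 to 0.34, opposite to the tagged cells.

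Of the 12 largest increases, 0 were called at 3 h and 9 at 24 h, when 0.912% and 4.70% of all REs were called higher. These increases were smaller than the largest decreases and n was 2 per group. The missing calls at 3 h therefore do not show that the increases began later. At PFKFB3 the tagged samples had 1.63 and 4.77 CPM with vehicle, 2.22 and 5.15 CPM at 3 h and 5.95 and 7.17 CPM at 24 h (1.13 ± 0.23 at 24 h, adjusted p = 0.00153). The WT samples had 1.96 and 3.40 CPM with vehicle and 2.92 and 3.41 CPM at 24 h. The difference between the genotypes passed the threshold for 0 of the 12 at 24 h and for 11 at 48 h. Over all REs 0.450% and 3.56% passed with a higher effect. GFAP lay between these patterns, with 5.73 and 2.69 CPM in vehicle, 4.06 and 1.59 CPM at 3 h and 1.67 and 0.99 CPM at 24 h.

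Sequence features that the rule did not use also followed the direction of change. A SOX core was found in 27.7% of lower promoter REs, in 13.2% of higher ones and in 15.6% of all promoter REs, counting the central window. Among lower promoter REs it was found in 44.4% of those also lower at 3 h and in 21.4% of the rest. Outside promoters it was found in 41.5% of lower and 35.2% of all REs, where the GC content is lower (median 46.5% against 63.3%). Facing SOX cores, 3 to 5 bp apart, were found in 2 lower promoter REs, and in 9 of all promoter REs (0.0384%). Among CpG-poor promoter REs the SOX core was found in 31.6% of lower, 21.0% of higher and 22.7% of those not called.

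The AP-1 site (TGACTCA or TGAGTCA) was found in 22.98% of higher CpG-poor promoter REs, against 7.72% of lower ones and 8.14% of those not called, and in 5.16% of all promoter REs. Other motifs are given within CpG-poor promoter REs too, since lower promoter REs were mostly of that class. The GC box GGGCGG, a site of SP family factors, was found in 43.4% of lower and 68.9% of all promoter REs, and within CpG-poor ones in 31.4% of lower, 27.8% of higher and 39.5% of those not called. CATCTG, an E-box, was found in 39.1% of lower and 21.8% of all, and within CpG-poor ones in 45.6%, 38.4% and 33.3%. GGAATG, read by TEAD factors, was found in 31.1% and 20.7%, and within CpG-poor ones in 33.95%, 31.1% and 27.2%. A match is a stretch of letters and not a measured binding site.

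Promoters that lost accessibility also had neighbours that did. Within 50 kb, 68.7% of lower promoter REs had at least 1 non-promoter RE called lower, against 46.4% of all promoter REs, and 25.6% of their neighbours were lower, against 15.4%. Of higher promoter REs, 39.8% had a higher neighbour, against 31.7% of all. The contrasts shared their samples, and adjacent promoters share neighbours, so no test was run.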

How the data were processed

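ATAC-seq had been made from human CNCCs. The authors trimmed reads with skewer, aligned them with Bowtie2 to hg38, removed duplicates, called peaks with MACS2, merged peak summits into REs and counted reads per RE in each sample. The submitters' processing notes name Bowtie2 2.4.1, MACS2 2.2.7.1, SAMtools 1.10 and deepTools 3.5.0. The deposited table holds these raw counts, not normalized, for 151457 REs and 58 samples, and 0 of its sample columns were left unused.

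RE midpoints were matched to protein-coding starts in GENCODE v44. Counts of all REs were tested with edgeR 4.0.16 in R 4.3.3 (TMM scaling, quasi-likelihood F test, Benjamini-Hochberg adjustment over all REs, threshold 0.05). The dose series had differentiation batch as covariate and the time course and WT groups their replicate. DESeq2 1.42.0, other scalings, a filter (at least 10 counts in 7 samples of the dose series or 2 elsewhere), the replicate block, no block, canonical starts alone and leaving out each replicate were alternatives. The fits were tested on simulated data. Titles give the clone and differentiation of each sample, so samples with the same number were paired, and deviations from group means correlated within 6 of 7 replicates at 0.50 or more. In S9CC47_R6 the lowest correlation was -0.36 and the median 0.63. P-values of the dose series rest on variation between replicates, with differences between differentiations taken out. The 2 clones of the differentiation they share were in 1 batch, so their difference in level also entered this variation. P-values of the time course and WT groups rest on n = 2 per group.

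Genes named were those of the nearest start at the 12 largest decreases and increases at 500 nM among called REs with a mean of at least 1 CPM and 7 of 7 replicates in 1 direction, the 5 largest decreases at 3 h, those called at 1.6 nM, SOX9, and up to 4 called REs per gene list. The members and lists were chosen with earlier results of these data known. Scaling by promoter REs alone was added after the data were seen. CPM used TMM library sizes, and shares of change and curve fits used no test. Counts limit precision: the median promoter RE had 501.5 counts in the median sample, other REs 89.5. In differentiation S9CC13_R14 the concentration labels of the 0 and 0.5 nM samples disagree with their titles, and titles were used. In time-course replicate R5 of tagged cells the count columns name clone S9CC47 and the titles S9CC13, so the clone was not used there. Some promoters and sequences that the naming rule would give are not reported here.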

Additional observations from a re-analysis of the deposited data

Results flagged for a closer look

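Sample values and medians of 66 groups of 7 samples were screened for a sample far from the others, and 6 groups had one, where chance gives about 1 in 20. At OC90, replicate S9CC47_R8 had 22.0 CPM at 0 nM, with the others from 3.63 to 9.27 CPM. The same replicate had 3.73 CPM at SEC14L4 at 0 nM, with the others from 0.83 to 2.00 CPM. At GAS7, S9CC47_R5 had 0.54 CPM at 500 nM, with the others from 0.17 to 0.32 CPM, and at KRBA1, S9CC13_R10 had 18.3 CPM at 500 nM, with the others from 5.09 to 10.6 CPM. None of these values changed the direction of its RE when the replicate was left out.

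Whole-class shifts were marked in a pair of replicates. The median log2 change of CpG-rich promoter REs was 0.51 in S9CC47_R6 at 5 nM, with the others from -0.14 to 0.05, and -0.27 in S9CC47_R5 at 1.6 nM, with the others from -0.05 to 0.08. Leaving out replicate S9CC47_R6 raised the called promoter REs at 5 nM from 286 to 1592.

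The tagged and WT effects differed, by the interaction term of edgeR, at 248 promoter REs at 3 h, 368 at 24 h and 693 at 48 h.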

How the results depend on the processing

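Each 500 nM value of the 12 largest decreases and increases, of MAD1L1 and LEMD1 and of SOX9 kept its direction and its side of the threshold under the alternatives run, except ENPP2 (adjusted p = 0.0556) and SOX9 (adjusted p = 0.277) with no replicate block and no batch. The counts of called promoter REs moved more, by over 1.5 times in the settings given here, and the cause was not tested except where fewer REs or samples entered.

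The replicate block, used in place of the batch, separates the 2 clones of the differentiation they share. With this block, the doses of 500, 16, 5 and 1.6 nM had 4123, 4625, 465 and 66 called promoter REs. With no replicate block and no batch, these doses had 622, 306, 76 and 0, and there were 0 in WT cells at 48 h, 0 at 3 h and 33 at 24 h in tagged cells. Over canonical starts alone, where fewer REs enter, the counts were 1693, 1040, 109 and 0.

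DESeq2 called 18 promoter REs at 1.6 nM, 0 in WT cells at 48 h, 319 at 3 h and 1076 at 24 h. Total-count scaling called 1 at 1.6 nM. Promoter scaling called 1 at 1.6 nM, 11 in WT cells at 48 h, 1411 at 24 h in tagged cells, and 1 each at 3 h and 24 h in WT cells and in the difference between clones. Of called promoter REs, 49.8% were lower at 500 nM, 58.1% under promoter scaling and 29.7% under total counts, and at 16 nM 86.5%, 55.5% and 71.5%. At 3 h these shares were 79.8%, 88.8% and 58.6%, and at 24 h 22.6%, 70.2% and 13.6%. In the WT comparison at 48 h promoter scaling moved the lower share from 16.7% to 54.5%, and in the genotype difference at 24 h total counts and promoter scaling moved it from 88.3% to 75.2% and 99.2%.

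Leaving out 1 replicate gave 1721 to 3194 called promoter REs at 500 nM, 885 to 4361 at 16 nM and 194 to 1592 at 5 nM. In the time course it gave 192 to 280 at 3 h and 242 to 500 at 24 h, with the lone sample assumed to vary like the other groups. The median ED50 ran from 9.94% to 12.04% SOX9 over all called promoter REs, from 21.4% to 23.98% over lower and from 2.23% to 6.28% over higher ones, and was 19.8% over lower ones on the log2(CPM + 1) scale. In 100 further cases the counts and medians were within 1.5 times of the reported count or within the spread over replicates. The shallowest sample had a median of 257 counts per promoter RE, and whether depth limited the calls was not tested.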
